A study of Mus musculus with 32 samples.

Results

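Striatal RNA of YAC128 mice treated with the antisense oligonucleotide AON12.1 was compared with that of wild-type (WT) mice, to describe how far the treated transgenic animals stood from WT over all genes. The libraries were taken by their titles, 8 from AON12.1-treated YAC128 mice and 8 from WT mice, which makes 16 of the 32 libraries of the study, and each library came from its own numbered mouse. The remaining 16 libraries came from YAC128 mice that received artificial cerebrospinal fluid (aCSF, 8) or a scrambled oligonucleotide (8). All mice were on a B6 background, the WT mice were littermates of the transgenic ones, and the tissue was collected at 12 months of age. Treatment went into the lateral ventricle in 3 doses, the first near 6 months of age and the later ones 2 and 4 weeks after it. Each oligonucleotide dose was 500 µg in 10 µL of aCSF, and the WT mice received 10 µL of aCSF alone. No WT mouse received an oligonucleotide, so the AON12.1-treated and WT groups differ in the transgene and in the oligonucleotide together, and these cannot be told apart within this comparison. Where it helps, the values of the other YAC128 groups against the same 8 WT libraries are given side by side. Those comparisons share the WT libraries, so the difference between YAC128 groups was tested directly.

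YAC128 mice are a Huntington disease model in which a yeast artificial chromosome supplies the complete human huntingtin gene, under its own promoter and with a lengthened polyglutamine tract, beside the mouse gene. The striatum consists mostly of GABAergic projection neurons of the direct pathway (Drd1, Tac1, Pdyn) and the indirect pathway (Drd2, Penk, Adora2a), and in Huntington disease many genes of these neurons lose expression while glial genes rise. Antisense oligonucleotides given into the ventricle spread through brain tissue and are taken up by neurons and glia, and microglia and astrocytes can respond to such an injection. The title of the study names the caspase-6 cleavage site of huntingtin as the target of AON12.1. Libraries primed at the poly(A) tail, as these were, do not show which exons a transcript holds.

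Gene counts averaged 957545 ± 136214 in the AON12.1 libraries and 893248 ± 170533 in the WT libraries (SD, n = 8 each), with a range of 658934 to 1153050 over the 16. The share of each file's counts in no annotated feature was 23.8% ± 6.70 with AON12.1 and 19.5% ± 4.40 in WT (p = 0.144 by a two-sided exact permutation test, or 0.287 after adjustment over 2 library measures). The share was higher in AON12.1 mice by 7.68 percentage points among animals whose number begins with 19 (6 against 5, exact p = 0.0303), and it differed by -3.81 points among those beginning with 18 (2 against 3, exact p = 1). WT replicate 1 had a share of 30.2%, where no other WT library exceeded 19.2%, and without it the difference was 5.84 points (exact p = 0.0311). A principal component analysis of the 1000 genes of highest variance put 27.2% of it on the leading axis, which followed this share within each group (r = 0.970 over the AON12.1 libraries and 0.954 over WT, given as a description). In a fit that took the share as a covariate, 54 of the 60 genes that passed the test below passed again. The feature NM_001388492 is paired with no gene, and named as no part of the transgene, by the annotation used here. Levels are given in CPM, gene counts scaled to a common library total after TMM normalization. The feature lay between 94.4 and 177 CPM in the AON12.1 libraries and at no more than 7.06 CPM in WT. Its lowest level was 119 CPM with aCSF and 104 CPM with scrambled, so every YAC128 library lay above every WT library. Penk, Drd1, Drd2 and Ppp1r1b, defining genes of striatal projection neurons, were detected in all 16 libraries, with Penk at 2482 CPM or more.

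Between AON12.1-treated YAC128 and WT striatum, complement C4b, lysozyme Lyz2 and the MHC class I genes B2m and H2-K1 were among the higher genes, and the neurofilaments Nefl and Nefm, the potassium channel Kcnj10 and the leak channel Nalcn were among the lower. Of 10679 genes tested, 60 passed edgeR's quasi-likelihood test at a Benjamini-Hochberg adjusted p under 0.05, which is 0.562% of them. Of these, 25 were higher than in WT (0.234%) and 35 were lower (0.328%). The higher genes had larger changes, with a median log2 fold change of 0.68, and lower levels, with a median WT level of 33.6 CPM. The 35 lower genes had a median log2 fold change of -0.51 and a median WT level of 106 CPM. Changes under 1.5-fold made up 6 of the 25 higher and 20 of the 35 lower genes. The ranges of the 8 and 8 libraries did not overlap for 8 of the 25 higher genes and 9 of the 35 lower ones, against 0.0936% of all tested genes in the higher and 0.15% in the lower direction (0.243% in all). Below an unadjusted p of 0.05 lay 1546 genes (14.5%), where 534 are due by chance alone, split into 789 higher and 757 lower. Over all genes the median log2 fold change was 0.01, with 5508 genes above and 5171 below 0. The genes next to the threshold were Dip2b inside it (adjusted p = 0.0468) and Aldoc and Anxa5 outside it (adjusted p = 0.0514 for both). Without AON12.1 replicate 5 the count of genes was 97, and without WT replicate 5 it was 49. All 60 genes kept their direction in each of the 16 fits that left out a library. Those fits share most of the libraries on which the genes were selected, so a kept direction is no independent support. Fitted on the 16 AON12.1 and WT libraries alone, 58 genes passed, among them 45 of the 60. Spata5, 1 of the 60, did not pass the expression filter in that fit and was not tested there.

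**Figure D1:**
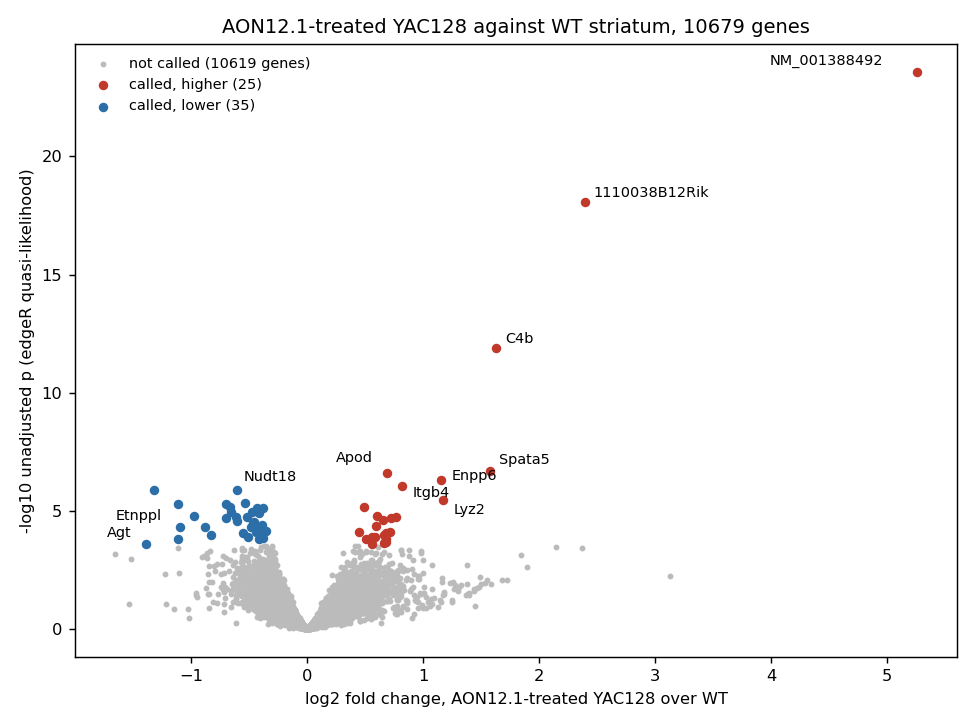
Log2 fold change between AON12.1-treated YAC128 and WT striatum (x axis) against -log10 of the unadjusted p (y axis) for 10679 genes, with the 25 genes called higher in red, the 35 called lower in blue and the others in grey. NM_001388492, 1110038B12Rik and C4b lie far above the rest, and the lower genes stay above a log2 fold change of -1.39.

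The values of the 60 genes in the other YAC128 groups stand here beside those with AON12.1. They were taken against the same 8 WT libraries on which the genes were selected, so a shared direction is no independent support. The median log2 fold change of the higher genes was 0.68 with AON12.1, 0.43 with the scrambled oligonucleotide and 0.23 with aCSF. For the lower genes the corresponding medians were -0.51, -0.18 and -0.22. Since the genes were selected on the AON12.1 libraries, selection favours larger AON12.1 values, and its part in the gap between the groups was not measured. Tested over all genes, 8 genes (0.0749%; 0.0375% higher and 0.0375% lower) passed between YAC128 aCSF and WT mice and 18 (0.169%; 0.131% higher and 0.0375% lower) between scrambled and WT. The difference between treated groups was tested within YAC128: AON12.1 differed from aCSF at 33 genes (0.309%; 0.215% higher and 0.0936% lower) and from the scrambled oligonucleotide at 15 (0.14%; 0.0936% higher and 0.0468% lower). The count against aCSF was 61 without AON12.1 replicate 7 and 73 without aCSF replicate 8, and the count against scrambled was 10 without AON12.1 replicate 2 or 8.

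**Figure D2:**
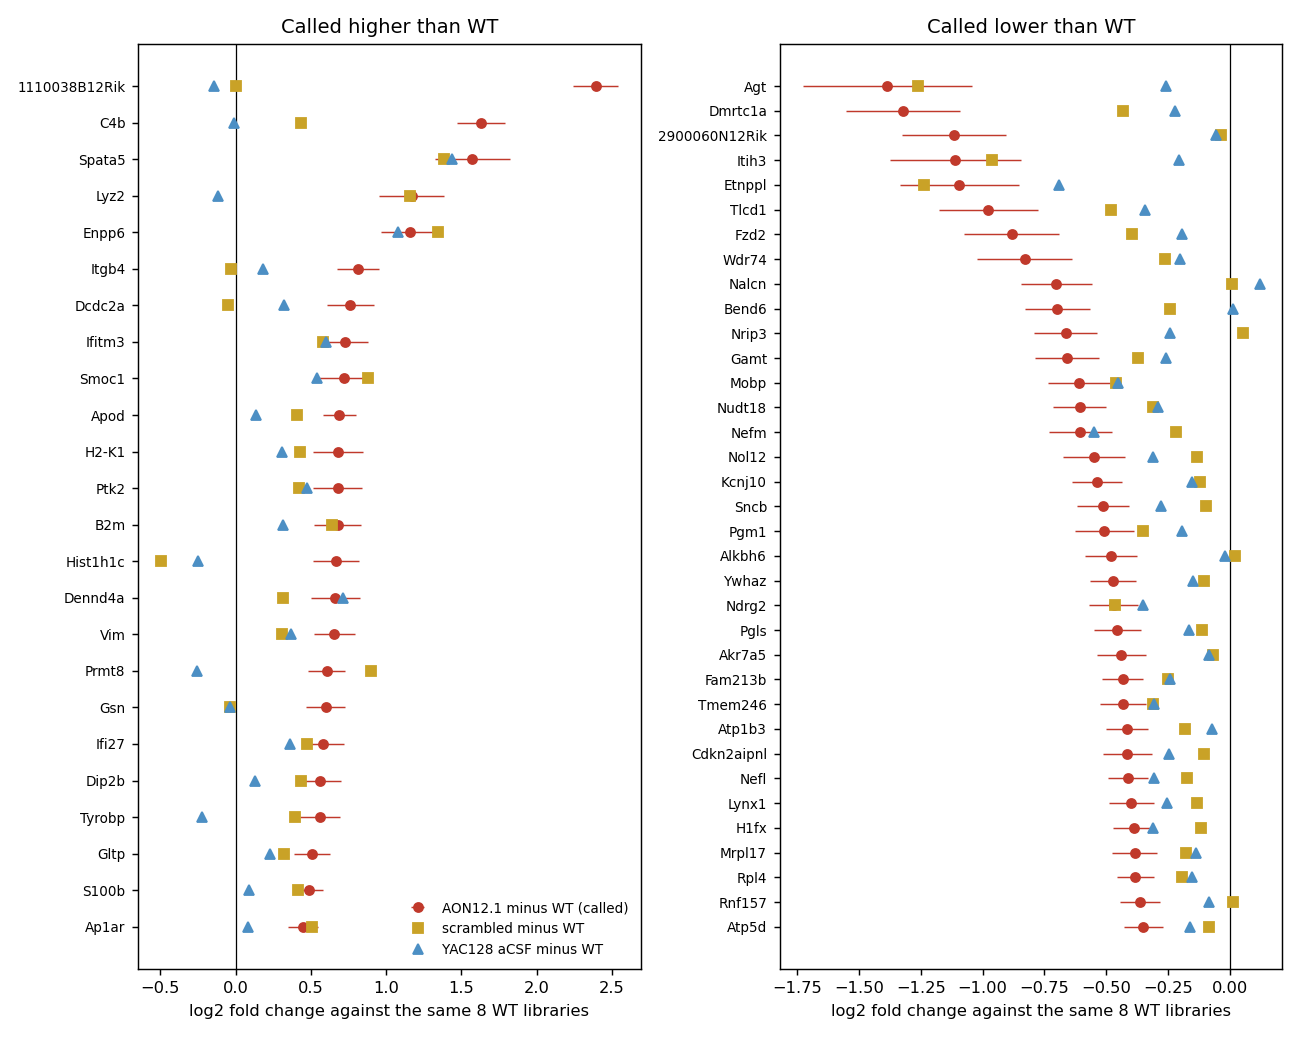
Log2 fold change against the same 8 WT libraries (x axis) for 59 of the 60 called genes (y axis; NM_001388492 is left out for its size), with AON12.1 as red circles ± SE, scrambled as yellow squares and YAC128 aCSF as blue triangles. Spata5 and Enpp6 have similar values in the 3 groups, 1110038B12Rik and Nalcn stand apart with AON12.1, and Lyz2 and Prmt8 stand apart with either oligonucleotide.

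A first set of genes stood away from WT in every YAC128 group. NM_001388492 had 0, 2.85 and 7.06 CPM as the lowest, median and highest WT level, and 94.4, 142 and 177 CPM with AON12.1. The groups did not overlap, the log2 fold change was 5.26 ± 0.23 (SE, adjusted p = 2.8e-20), and AON12.1 did not pass the test against aCSF (-0.00 ± 0.13, adjusted p = 0.999). Mouse Htt, the endogenous huntingtin gene (ENSMUSG00000029104), had a level of 102 ± 15.4 CPM with AON12.1 and 89.6 ± 17.4 CPM in WT (SD, n = 8 each). Its log2 fold change was 0.18, with a 95% interval of -0.06 to 0.43 (adjusted p = 0.501). Reads of a human transcript that align to the mouse gene would be counted with it.

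Spata5 (ENSMUSG00000027722, chromosome 3), an AAA-family ATPase of ribosome maturation, ran from 3.24 over a median of 4.78 to 8.10 CPM in WT and from 8.61 over 18.0 to 22.7 CPM with AON12.1. The groups did not overlap, and the log2 fold change was 1.57 ± 0.25 (adjusted p = 0.000539), beside 1.43 with aCSF and 1.38 with the scrambled oligonucleotide. Spata5 passed the expression filter in the fit of all 32 libraries and not in that of the 16 alone, where it was not tested. It also had no adjusted p with the stricter filter or the DESeq2 test. Anxa5, a calcium-dependent phospholipid-binding protein whose gene is a neighbour of Spata5, had 41.7 ± 6.48 CPM in WT and 56.4 ± 9.10 CPM with AON12.1 and narrowly missed the threshold (0.44 ± 0.11, adjusted p = 0.0514). It passed in the fits without AON12.1 replicate 2 (adjusted p = 0.0239), without AON12.1 replicate 4 (adjusted p = 0.0294) and on leaving out WT replicate 7 (adjusted p = 0.0227). Of 7 tested genes around Spata5 and Anxa5, a list drawn up with earlier results known, 6 were higher and Spata5 alone passed. The other values of the list ran from -0.06 for Exosc9 to 0.24 for Cetn4.

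Enpp6 (ENSMUSG00000038173, chromosome 8), a choline phosphodiesterase of newly forming oligodendrocytes, had a lowest, median and highest level of 7.41, 17.6 and 24.3 CPM in WT and of 29.1, 36.6 and 47.2 CPM with AON12.1. Every AON12.1 library lay above every WT library. The log2 fold change was 1.15 ± 0.19 (adjusted p = 0.000886), and AON12.1 did not pass against aCSF (0.08 ± 0.17, adjusted p = 0.911) or scrambled (-0.19 ± 0.16, adjusted p = 0.867). Among 14 tested genes of oligodendrocyte precursors and newly formed oligodendrocytes, 8 were higher and 6 lower, the median was 0.02, and Enpp6 was the 1 gene that passed.

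**Figure D3:**
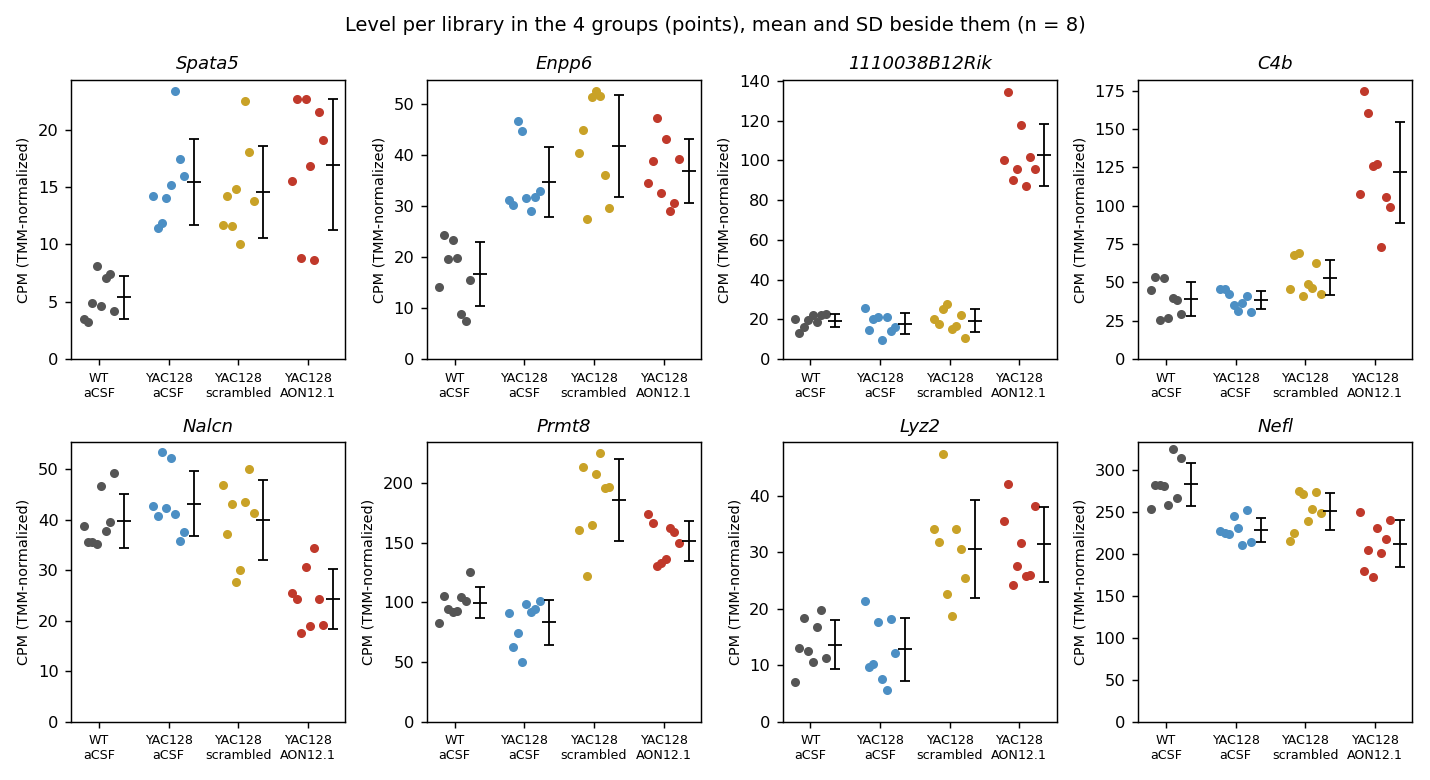
Level of 8 genes in each library (points, CPM on a linear y axis from 0) for WT aCSF, YAC128 aCSF, YAC128 scrambled and YAC128 AON12.1 (x axis), with mean and SD of the 8 libraries beside the points. Spata5 and Enpp6 are high in all YAC128 groups, 1110038B12Rik and C4b with AON12.1, Prmt8 and Lyz2 with either oligonucleotide, and Nalcn is low with AON12.1.

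A second set differed from WT with AON12.1 and also differed directly from the other YAC128 groups. The noncoding RNA 1110038B12Rik (ENSMUSG00000092203, chromosome 17), kept here among host genes of small nucleolar RNAs, ran from 12.96 over 19.9 to 22.5 CPM in WT and from 87.2 over 97.8 to 134 CPM with AON12.1. The ranges were far from overlapping (2.39 ± 0.15, 5.25-fold, adjusted p = 4.7e-15). AON12.1 exceeded aCSF by 2.53 ± 0.15 (adjusted p = 9.28e-16) and scrambled by 2.39 ± 0.15 (adjusted p = 5.17e-15), while those groups had means of 17.9 and 19.4 CPM. Of 17 tested genes of the small nucleolar RNA host and nuclear noncoding list, 14 were higher than in WT, the median was 0.29, and 1110038B12Rik was the 1 that passed. Gas5, another host gene of small nucleolar RNAs, had 198 ± 55.3 CPM against 132 ± 23.9 CPM and did not pass (0.58 ± 0.16, adjusted p = 0.0676), except without AON12.1 replicate 6 (adjusted p = 0.0186).

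C4b (ENSMUSG00000073418, chromosome 17), a complement component that reactive astrocytes and oligodendrocytes produce, had 25.8, 38.9 and 53.5 CPM as its lowest, median and highest WT level and 73.2, 117 and 175 CPM with AON12.1. No AON12.1 library reached down to the WT range. The log2 fold change was 1.63 ± 0.16 (3.09-fold, adjusted p = 4.65e-09), and C4b was also higher than with aCSF (1.64 ± 0.16, adjusted p = 3.2e-09) and scrambled (1.19 ± 0.15, adjusted p = 6.67e-06). C4b has a near-identical neighbouring copy, C4a, so reads may have been split between them. Of 6 tested complement genes, from a list of 14, 5 were higher, with a median of 0.26 and only C4b past the threshold. The C1q subunits had values from 0.18 for C1qb to 0.29 for C1qc.

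Reactive astrocyte genes were higher in 5 of 6 tested members, with a median of 0.63, and C4b and Vim passed. The list held 18 genes, and the other 12 were too low in counts to be tested. The filter keeps a low gene more readily if it is high in a group, so these members are not a neutral selection. Vim, an intermediate filament of reactive astrocytes and vascular cells, rose from 39.5 ± 6.40 to 62.9 ± 14.0 CPM (0.65 ± 0.14, adjusted p = 0.00909). With AON12.1 Vim did not pass against aCSF (0.29 ± 0.13, adjusted p = 0.375) or scrambled (0.35 ± 0.13, adjusted p = 0.513). Gfap, the main astrocyte filament, stood at 79.8 ± 18.1 CPM against 51.5 ± 16.8 CPM and did not pass (0.61 ± 0.18, adjusted p = 0.112), though it did in the fit that took the no-feature share as covariate (0.72, adjusted p = 0.048). Against YAC128 aCSF mice the Gfap value was 0.77 ± 0.18 (adjusted p = 0.041). Serpina3n, a protease inhibitor of reactive astrocytes, had 32.2 ± 14.7 CPM with AON12.1 and 18.1 ± 6.26 CPM in WT (0.82 ± 0.26, adjusted p = 0.125). The summed level of the list, C4b included, ran from 160 over a median of 202 to 271 CPM in WT. With AON12.1 it ran from 273 over 364 to 455 CPM. C4b alone had medians of 38.9 CPM in WT and 117 CPM with AON12.1, a large part of that shift.

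Interferon-response and MHC class I genes were higher in all 8 members of their list that could be tested, of 22 in the list. Their median log2 fold change was 0.60, beside 0.34 with aCSF and 0.40 with the scrambled oligonucleotide against the same WT libraries. Their summed level lay between 255 and 382 CPM in WT and between 407 and 564 CPM with AON12.1, so these ranges did not overlap. Ifitm3, Ifi27, B2m and H2-K1 passed the test. The promoters of these genes are shown because the members moved together: RefSeq promoter sequences (GRCm38.p6, 250 bases before to 50 after the annotated start) were matched for 3 of the 4, and each is printed 5′ to 3′ on the strand of its gene. Capitals mark matches to GAAANNGAAA, a short form of the interferon-stimulated response element, searched on both strands, and to TTCNNNGAA, the form of the gamma-activated site, which is its own reverse complement.
Ifitm3, chr7:141010695-141010994, minus strand: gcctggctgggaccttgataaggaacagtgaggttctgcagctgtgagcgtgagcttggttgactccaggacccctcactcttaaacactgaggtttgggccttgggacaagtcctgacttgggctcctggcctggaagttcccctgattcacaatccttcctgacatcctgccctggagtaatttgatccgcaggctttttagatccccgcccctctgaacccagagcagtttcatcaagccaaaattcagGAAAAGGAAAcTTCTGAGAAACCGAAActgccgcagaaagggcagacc
B2m, chr2:122147437-122147736, plus strand: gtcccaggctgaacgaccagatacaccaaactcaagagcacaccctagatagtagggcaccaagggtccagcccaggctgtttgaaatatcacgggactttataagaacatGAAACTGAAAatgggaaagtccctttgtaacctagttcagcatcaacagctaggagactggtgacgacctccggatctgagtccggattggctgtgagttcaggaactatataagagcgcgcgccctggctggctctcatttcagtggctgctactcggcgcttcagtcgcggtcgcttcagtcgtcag
H2-K1, chr17:34000298-34000597, minus strand: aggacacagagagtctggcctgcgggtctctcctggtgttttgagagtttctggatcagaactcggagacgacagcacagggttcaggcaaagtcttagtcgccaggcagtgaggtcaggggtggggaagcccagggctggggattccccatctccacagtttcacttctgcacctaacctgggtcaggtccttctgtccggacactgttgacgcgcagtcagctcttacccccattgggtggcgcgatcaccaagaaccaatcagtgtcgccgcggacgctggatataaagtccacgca
The Ifitm3 window held 2 matches to GAAANNGAAA and 1 to TTCNNNGAA, all just past the annotated start, with the TTCNNNGAA match overlapping the latter GAAANNGAAA match. The B2m window held 1 match to GAAANNGAAA, at position -139 from the start, and the H2-K1 window held neither. Of 32851 promoter windows of the same length, 3.44% held GAAANNGAAA and 8.3% held TTCNNNGAA. A match describes letters in this window.

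Ifitm3, a membrane protein that restricts virus entry, ran from 15.3 over 33.2 to 47.8 CPM in WT and from 32.9 over 56.9 to 58.2 CPM with AON12.1. All AON12.1 libraries but replicate 3, the one at 32.9 CPM, lay close together at 47.6 CPM or above, and the groups overlapped. The log2 fold change was 0.73 ± 0.15 (adjusted p = 0.00783), beside 0.60 with aCSF and 0.58 with scrambled. B2m, the light chain of MHC class I, had 47.8, 64.9 and 83.6 CPM in WT and 65.1, 108 and 140 CPM with AON12.1, with some overlap. Its log2 fold change was 0.68 ± 0.15 (adjusted p = 0.0209), and the call was lost without WT replicate 3 (adjusted p = 0.0563), WT replicate 5 (0.0574), AON12.1 replicate 3 (0.0615) or AON12.1 replicate 8 (0.0621). H2-K1, a heavy chain of MHC class I, rose from 30.3 ± 8.60 to 49.9 ± 8.27 CPM (0.68 ± 0.17, adjusted p = 0.0384), and its call held in 5 of the 16 fits that left out a library, with adjusted p up to 0.0894 in the others. Ifi27, an interferon-induced protein, rose from 41.6 ± 8.72 to 61.5 ± 7.59 CPM (0.58 ± 0.14, adjusted p = 0.0277), and its call held in 10 of 16 such fits (adjusted p up to 0.0724). With the level of thalamus, hypothalamus and septum markers as a covariate, H2-K1 (0.68, adjusted p = 0.0664) and Ifi27 (0.52, adjusted p = 0.0721) kept their size and lost their calls. H2-D1, another heavy chain, had 89.9 ± 16.8 against 58.0 ± 13.8 CPM and missed the threshold (0.61 ± 0.16, adjusted p = 0.0537), and it passed in 4 of 16 such fits. None of the 4 called genes passed between AON12.1 and either other YAC128 group.

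Further genes called against WT had values with the scrambled oligonucleotide close to those with AON12.1. Lyz2, the lysozyme of microglia and other myeloid cells, had 7.06, 12.8 and 19.8 CPM as the lowest, median and highest WT level and 24.2, 29.6 and 42.1 CPM with AON12.1. The groups did not overlap (1.17 ± 0.22, 2.25-fold, adjusted p = 0.00359). Lyz2 was higher with AON12.1 than with aCSF (1.29 ± 0.21, adjusted p = 0.00118), and the value against scrambled was 0.01 ± 0.19 (adjusted p = 0.997). Tyrobp, a signalling adaptor of microglia, rose from 142 ± 21.3 to 211 ± 56.2 CPM (0.56 ± 0.13, adjusted p = 0.0275), with the call held in 10 of the 16 fits without a library (adjusted p up to 0.0856). The Tyrobp call was also lost in the fit on the 16 libraries alone (adjusted p = 0.0507) and with the level of thalamus, hypothalamus and septum markers as a covariate (0.52, adjusted p = 0.0684). Against aCSF the Tyrobp value was 0.79 ± 0.13 (adjusted p = 0.00122). Among 13 tested genes of activated microglia, from a list of 19, 8 were higher, the median was 0.33, and Lyz2, B2m and Tyrobp passed. Among 13 genes of homeostatic microglia, 9 were higher, the median was 0.11 and none passed, with P2ry12 at -0.25 and Tmem119 at -0.20. In bulk tissue, more cells of a type and more RNA per cell cannot be told apart, nor fewer cells and less RNA.

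Prmt8, an arginine methyltransferase of neurons, ran from 82.4 over 97.8 to 125 CPM in WT and from 131 over 154 to 174 CPM with AON12.1. All AON12.1 libraries exceeded all WT libraries (0.60 ± 0.12, adjusted p = 0.00772). The scrambled group had the higher mean, 186 CPM, and AON12.1 against scrambled did not pass (-0.30 ± 0.12, adjusted p = 0.552), while AON12.1 exceeded aCSF by 0.86 ± 0.12 (adjusted p = 7.44e-05). S100b, a calcium-binding protein of astrocytes, had 399, 436 and 571 CPM in WT and 522, 627 and 808 CPM with AON12.1, with a slight overlap of the ranges. It rose by 0.49 ± 0.09 (adjusted p = 0.00479) against WT and by 0.40 ± 0.09 (adjusted p = 0.0402) against aCSF. Ap1ar, a regulator of adaptor complex 1, rose by 0.45 ± 0.10 (adjusted p = 0.0197), a call that was lost without WT replicate 5 (0.41, adjusted p = 0.0528). Smoc1, a secreted calcium-binding matrix protein, rose by 0.72 ± 0.16 (adjusted p = 0.0201), beside 0.88 with scrambled and 0.54 with aCSF. Its call was lost without AON12.1 replicate 2 (0.62, adjusted p = 0.0856) and in the fit on the 16 libraries alone (0.72, adjusted p = 0.0784).

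Genes of mature oligodendrocytes moved in both directions. Apod, a lipid-binding apolipoprotein, ran from 281 over 305 to 469 CPM in WT and from 423 over 474 to 806 CPM with AON12.1, and the groups overlapped through WT replicate 4. The log2 fold change was 0.69 ± 0.11 (adjusted p = 0.000539), and 0.57 without AON12.1 replicate 2 (adjusted p = 0.00116). Gelsolin, encoded by Gsn, cuts actin filaments. Gsn had 47.1, 68.7 and 76.2 CPM in WT and 78.1, 92.3 and 154 CPM with AON12.1, without overlap. It rose by 0.60 ± 0.13 (adjusted p = 0.0139), and it was also higher than with aCSF (0.64 ± 0.13, adjusted p = 0.00937) and scrambled (0.63 ± 0.13, adjusted p = 0.017). Its call against WT was lost with the level of thalamus, hypothalamus and septum markers, described below, as a covariate (0.44, adjusted p = 0.0566). Trf, the iron carrier transferrin, had 905 ± 198 against 661 ± 81.6 CPM and did not pass against WT (0.45 ± 0.12, adjusted p = 0.0615), but it did against scrambled (0.55 ± 0.12, adjusted p = 0.0309). Its value against WT passed without AON12.1 replicate 1 (adjusted p = 0.0384), AON12.1 replicate 3 (0.049) or WT replicate 4 (0.0441).

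Mobp, a protein of compact myelin, fell from 617 ± 95.7 to 406 ± 115 CPM (-0.61 ± 0.12, adjusted p = 0.00783), beside -0.45 with aCSF and -0.46 with scrambled. Among 26 tested genes of mature oligodendrocytes, 10 were higher and 16 lower, the median was -0.10, and Apod and Gsn passed upward and Mobp downward. AON12.1 replicate 2 had the highest Mbp, Mobp, Apod and Gsn of its group and the fewest gene counts. Mbp, myelin basic protein, had a log2 fold change of -0.21 that did not pass (adjusted p = 0.388). Without AON12.1 replicate 2 it was -0.38 (adjusted p = 0.0213), which passes, and Mobp was -0.74 (adjusted p = 0.000123). Itgb4, an integrin subunit that binds laminin, had 18.3, 37.2 and 47.1 CPM in WT and 43.1, 65.5 and 77.5 CPM with AON12.1. The groups overlapped slightly, the log2 fold change was 0.81 ± 0.14 (adjusted p = 0.00141), and Itgb4 exceeded aCSF by 0.63 ± 0.13 (adjusted p = 0.0157) and scrambled by 0.84 ± 0.14 (adjusted p = 0.00106).

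Several neuronal genes were lower with AON12.1 than in WT. Nalcn (ENSMUSG00000000197, chromosome 14), the sodium leak channel that sets resting excitability, had 35.1, 38.3 and 49.3 CPM as its lowest, median and highest WT level and 17.6, 24.3 and 34.5 CPM with AON12.1. The groups did not overlap. Nalcn fell by 0.70 ± 0.14 on the log2 scale (adjusted p = 0.00783), and by 0.82 ± 0.14 against aCSF (adjusted p = 0.00128) and 0.71 ± 0.14 against scrambled (adjusted p = 0.0157). Of 32 tested ion channel genes 21 were higher, with a median of 0.11, and Nalcn was the 1 that passed.

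Nefl, the light neurofilament, ran from 253 over 282 to 326 CPM in WT and from 172 over 212 to 249.9 CPM with AON12.1, with no overlap. It fell by 0.41 ± 0.08 (adjusted p = 0.00551), beside -0.31 with aCSF and -0.17 with scrambled. Nefm, the medium neurofilament and its neighbour on chromosome 14, fell from 344 ± 53.8 to 226 ± 49.4 CPM (-0.60 ± 0.13, adjusted p = 0.00961), beside -0.55 with aCSF and -0.22 with scrambled. Neither neurofilament passed between AON12.1 and aCSF (adjusted p = 0.649 for Nefl and 0.922 for Nefm). Sncb, the presynaptic beta-synuclein, fell from 670 ± 67.2 to 468 ± 87.0 CPM (-0.51 ± 0.11, adjusted p = 0.00783). It was the 1 gene that passed among 28 of synaptic vesicles and release, of which 20 were lower, with a median of -0.12. Ywhaz, the zeta isoform of the 14-3-3 adaptors, had 340.2, 381 and 445 CPM in WT and 239.5, 272 and 337 CPM with AON12.1, with no overlap (-0.47 ± 0.09, adjusted p = 0.00608).

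Bend6, a BEN-domain protein, fell from 69.5 ± 8.38 to 42.4 ± 11.6 CPM (-0.70 ± 0.13, adjusted p = 0.00443), and it was also lower than with aCSF (-0.71 ± 0.13, adjusted p = 0.00307). Nrip3 fell from 73.7 ± 12.4 to 46.0 ± 9.50 CPM without overlap (-0.66 ± 0.13, adjusted p = 0.00479), and against scrambled it fell by 0.72 ± 0.13 (adjusted p = 0.00311). Alkbh6, an AlkB-family oxygenase homologue, was lower than in WT (-0.48 ± 0.11, adjusted p = 0.0139), aCSF (-0.46 ± 0.10, adjusted p = 0.0266) and scrambled (-0.50 ± 0.10, adjusted p = 0.0203). In the fit on the 16 libraries alone the adjusted p of Alkbh6 against WT was 0.0507. The aCSF means of Bend6, Nrip3 and Alkbh6 were 70.0, 61.9 and 71.1 CPM. Atp1b3, a subunit of the sodium pump, fell by 0.42 ± 0.08 (adjusted p = 0.00638). Rnf157, a ubiquitin ligase, fell by 0.36 ± 0.08 (adjusted p = 0.0193), a call lost without WT replicate 5 (adjusted p = 0.0528). Lynx1, a modulator of nicotinic receptors, fell by 0.40 ± 0.09 (adjusted p = 0.0203) and did not pass without WT replicate 3 (adjusted p = 0.059), AON12.1 replicate 3 (0.0501) or AON12.1 replicate 6 (0.0509).

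Genes of homeostatic astrocytes were lower in 16 of 22 tested members, with a median of -0.15, and Ndrg2 passed downward while S100b passed upward. Ndrg2, an astrocyte-enriched protein, fell from 1077 ± 123 to 779 ± 103 CPM (-0.47 ± 0.10, adjusted p = 0.011), beside -0.46 with scrambled and -0.35 with aCSF. Kcnj10, the potassium channel Kir4.1 of astrocytes and oligodendrocytes, ran from 100.0 over 129 to 146 CPM in WT and from 66.8 over 87.1 to 107 CPM with AON12.1. The ranges overlapped slightly, and the gene fell by 0.54 ± 0.10 (adjusted p = 0.00438), beside -0.15 with aCSF and -0.12 with scrambled. Gamt, an enzyme of creatine synthesis, fell from 66.8 ± 12.7 to 41.8 ± 8.67 CPM (-0.66 ± 0.13, adjusted p = 0.00608). Fzd2, a Wnt receptor, fell by 0.88 ± 0.19 (adjusted p = 0.0139), and the call was lost without WT replicate 6 (-0.80, adjusted p = 0.0501). Aldoc, the aldolase of astrocytes, had 714 ± 52.7 against 881 ± 71.5 CPM without overlap and missed the threshold (-0.30 ± 0.08, adjusted p = 0.0514), with adjusted p down to 0.0365 in the 7 of 16 fits without a library in which it passed.

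The larger falls among astrocyte genes are given here beside markers of neighbouring brain regions. A relation between them across libraries was not tested. Agt, angiotensinogen, had 28.2, 56.2 and 119 CPM as its lowest, median and highest WT level and 5.55, 21.4 and 48.5 CPM with AON12.1 (-1.39 ± 0.34, adjusted p = 0.0452). Itih3, a hyaluronan-binding inhibitor chain, fell from 110.4 ± 32.3 to 50.5 ± 22.6 CPM (-1.11 ± 0.27, adjusted p = 0.0305). Etnppl, an astrocyte enzyme of phosphoethanolamine breakdown, fell from 53.9 ± 17.1 to 24.8 ± 8.10 CPM (-1.09 ± 0.24, adjusted p = 0.0139), beside -1.24 with scrambled and -0.69 with aCSF. All of them overlapped between the groups. Among 11 tested markers of thalamus, hypothalamus and septum, 10 were lower with AON12.1, with a median of -0.81 and none past the threshold. Their summed level ran from 211 over 878 to 2099 CPM in WT and from 238 over 352 to 926 CPM with AON12.1. Slc17a6, the vesicular glutamate transporter of thalamic neurons, stood at -1.65 ± 0.45 (adjusted p = 0.0676), and calretinin, Calb2, at -1.11 ± 0.29 (adjusted p = 0.0558). Without WT replicate 3 both passed (adjusted p = 0.0446 for Slc17a6 and 0.0345 for Calb2), as they did without WT replicate 8 (0.0492 and 0.032), and Calb2 passed without AON12.1 replicate 7 (0.0371). Both passed with the no-feature share as covariate (0.0208 and 0.048) and without a filter (0.0196 and 0.00962), and neither with limma voom (0.143 and 0.0924). On the 16 libraries alone Slc17a6 passed (0.0441) and Calb2 did not (0.0507). With the mean level of this list as a covariate, an alternative chosen after seeing the data, the values were -0.75 for Agt (adjusted p = 0.0552), -0.70 for Itih3 (adjusted p = 0.0279) and -0.76 for Etnppl (adjusted p = 0.0691). In that fit 47 of the 60 genes passed again. Leaving out a library in turn, Agt passed in 6 and Itih3 in 8 of 16 fits (adjusted p up to 0.104 and 0.105), and Etnppl in all 16. The 13 tested markers of cortical neurons had a median of 0.06 and the 7 of choroid plexus and ependyma 0.17, with none past the threshold. Slc17a7, of cortical neurons, had a value of -0.06 ± 0.58 and Ttr, of the choroid plexus, 0.63 ± 1.03.

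Genes of the projection neurons did not pass between AON12.1-treated mice and WT. Penk, the enkephalin precursor of the indirect pathway, had 2482, 4272 and 5694 CPM in WT and 2777, 3412 and 4688 CPM with AON12.1. The AON12.1 range lay inside that of WT, and the log2 fold change was -0.22 with a 95% interval of -0.55 to 0.10 (adjusted p = 0.539). In YAC128 aCSF mice the Penk mean was 2488 CPM and the value against the same WT libraries was -0.76 ± 0.16 (adjusted p = 0.0495), while AON12.1 against aCSF was 0.53 ± 0.16 and did not pass (adjusted p = 0.141). Adora2a, an adenosine receptor of the same neurons, had 75.8 ± 23.1 CPM with AON12.1, 87.7 ± 19.6 CPM in WT and 49.2 CPM in aCSF mice. Its log2 fold change against WT was -0.23 (95% interval -0.58 to 0.12, adjusted p = 0.557), and -0.36 without AON12.1 replicate 2, whose 128 CPM stood above the rest (adjusted p = 0.332). Against aCSF the Adora2a value of 0.60 ± 0.18 did not pass (adjusted p = 0.129).

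Drd2, the dopamine receptor of the indirect pathway, had a value of -0.07 (95% interval -0.45 to 0.31, adjusted p = 0.907). In the direct pathway, Drd1 had 0.12 (-0.22 to 0.47, adjusted p = 0.782), and the neuropeptide genes Tac1 and Pdyn had 0.22 (-0.07 to 0.51, adjusted p = 0.503) and 0.16 (-0.14 to 0.46, adjusted p = 0.649). DARPP-32, encoded by Ppp1r1b, inhibits protein phosphatase under dopamine control. Ppp1r1b had 0.06 (-0.32 to 0.45, adjusted p = 0.915), and the phosphodiesterase Pde10a had 0.44 (-0.02 to 0.90, adjusted p = 0.38). By list, 2 of 7 indirect-pathway genes were higher with a median of -0.07, and 6 of 8 direct-pathway genes were higher with a median of 0.18. Of 44 genes that the projection neurons share, 40 were higher, with a median of 0.17 beside -0.21 in aCSF mice and -0.06 with scrambled. The mean log2 level of this shared list varied between libraries with an SD of 0.24 with AON12.1 and 0.29 in WT, more than that median. Its summed level ran from 14407.5 to 25891.9 CPM with AON12.1 and from 11602.9 to 22534.2 CPM in WT, with wide overlap. No gene of these 3 lists passed, and over all tested genes 51.6% were above 0.

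**Figure D4:**
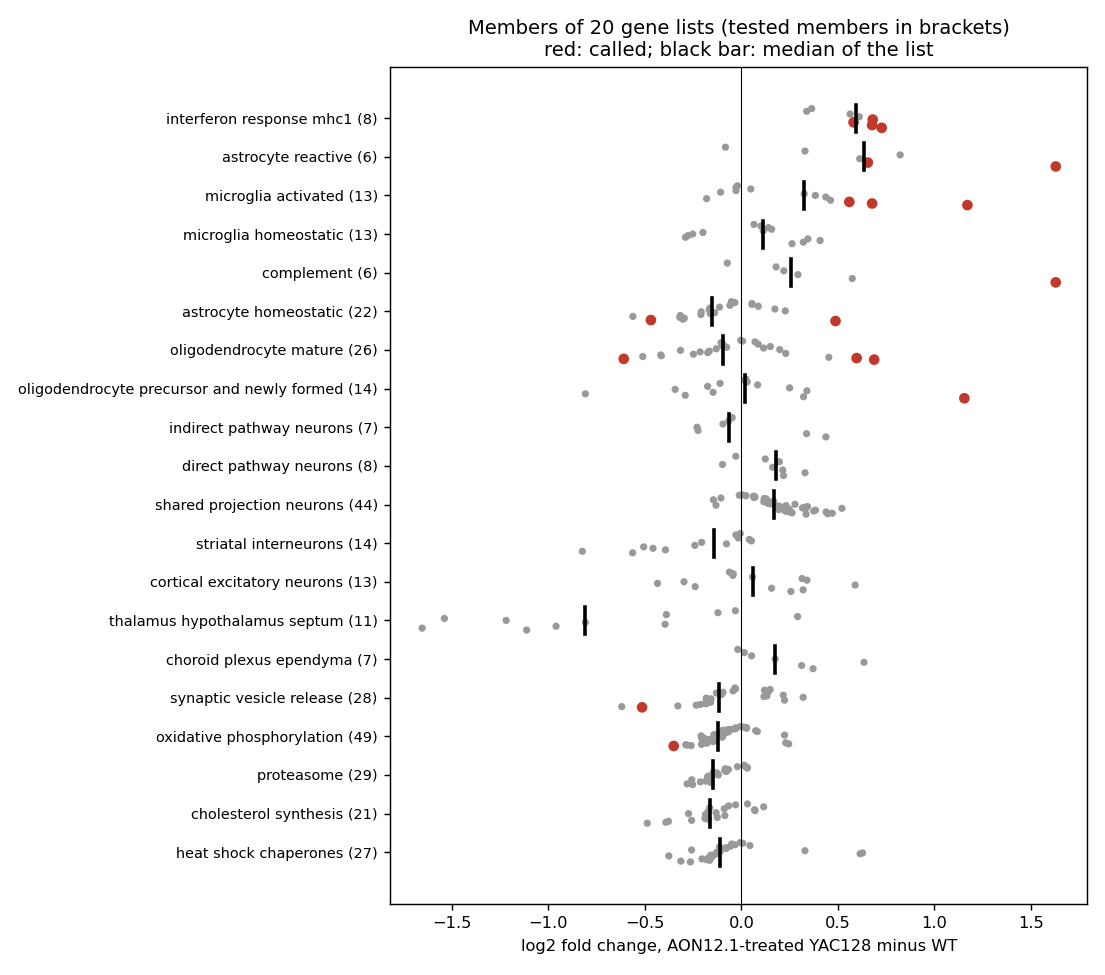
Log2 fold change between AON12.1-treated YAC128 and WT striatum (x axis) for each tested member of 20 gene lists (y axis, number of tested members in brackets), with members past the threshold in red and the median of each list as a black bar. Interferon-response and reactive astrocyte genes have the highest medians, 0.60 and 0.63, and markers of thalamus, hypothalamus and septum have the lowest, -0.81.

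In oxidative phosphorylation 41 of 49 tested genes were lower, with a median of -0.12, beside -0.14 with aCSF and -0.08 with scrambled. Atp5d, a subunit of the mitochondrial ATP synthase, was the 1 that passed (1155 ± 110 to 905 ± 90.9 CPM, -0.35 ± 0.08, adjusted p = 0.0193). That call was lost without AON12.1 replicate 3 (adjusted p = 0.0524), WT replicate 5 (0.0504) or WT replicate 8 (0.0523), and in the fit that took the no-feature share as covariate (-0.28, adjusted p = 0.0591). Among the proteasome genes 25 of 29 were lower (median -0.15), among heat shock and chaperone genes 22 of 27 (median -0.11), and among cholesterol synthesis genes 17 of 21 (median -0.16), and none of these passed. The 9 tested genes of the mitochondrial genome had a median of 0.08. Of 53 cytosolic ribosomal protein genes, Rpl4 passed, falling from 801 ± 68.6 to 615 ± 50.6 CPM (-0.38 ± 0.07, adjusted p = 0.00479), while 31 were higher and the median was 0.03.

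Nudt18, a hydrolase of oxidised nucleotides, had the smallest p among the 35 lower genes (93.4 ± 10.5 to 61.3 ± 12.6 CPM, -0.61 ± 0.11, adjusted p = 0.00162). Pgls, of the pentose phosphate pathway, fell by 0.45 ± 0.10 (adjusted p = 0.01), and Fam213b by 0.43 ± 0.08 (adjusted p = 0.00479). Pgm1, a phosphoglucomutase of glycogen metabolism, fell by 0.51 ± 0.12 (adjusted p = 0.028), with the call held in 8 of 16 fits that left out a library (adjusted p up to 0.0806). Akr7a5, an aldo-keto reductase, fell by 0.44 ± 0.10 (adjusted p = 0.02), a call lost without AON12.1 replicate 2 (adjusted p = 0.0501), WT replicate 4 (0.0533) or WT replicate 6 (0.0501). Linker histone genes went opposite ways. Hist1h1c rose by 0.67 ± 0.15 (adjusted p = 0.0236) and was higher than with aCSF (0.92 ± 0.15, adjusted p = 0.00122) and scrambled (1.16 ± 0.16, adjusted p = 3.45e-05). Its call against WT held in 11 of 16 fits without a library (adjusted p up to 0.0735), and it was lost in the fit on the 16 libraries alone (0.67, adjusted p = 0.0709) and with the thalamus, hypothalamus and septum covariate (0.65, adjusted p = 0.0552). H1fx fell by 0.39 ± 0.08 (adjusted p = 0.0134), beside -0.31 with aCSF and -0.12 with scrambled, and did not pass in the fit on the 16 libraries alone (adjusted p = 0.0657). Dcdc2a, a doublecortin-family gene, rose by 0.76 ± 0.16 (adjusted p = 0.00783) and differed from scrambled (0.81 ± 0.15, adjusted p = 0.00892), with 0.44 ± 0.15 against aCSF (adjusted p = 0.202).

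The remaining calls were mostly low in level. The noncoding RNA 2900060N12Rik fell by 1.12 ± 0.21 (adjusted p = 0.00438) and the X-linked gene Dmrtc1a by 1.32 ± 0.23 (adjusted p = 0.00162). Tlcd1, a membrane protein, fell from 29.5 ± 9.36 to 15.1 ± 2.97 CPM without overlap (-0.98 ± 0.20, adjusted p = 0.00783), and Tmem246 fell by 0.43 ± 0.09 (adjusted p = 0.014), also without overlap. Genes of ribosome assembly and mitochondrial translation among the lower ones were Nol12 (-0.55 ± 0.13, adjusted p = 0.0203), Wdr74 (-0.83 ± 0.19, adjusted p = 0.0236) and Mrpl17 (-0.38 ± 0.09, adjusted p = 0.0297), and Cdkn2aipnl fell by 0.41 ± 0.10 (adjusted p = 0.0305). These calls held in 12, 11, 10 and 9 of 16 fits without a library, with adjusted p up to 0.0778, 0.0632, 0.102 and 0.0806. Among the higher genes, Gltp, a glycolipid transfer protein, rose by 0.51 ± 0.12 and Ptk2, focal adhesion kinase, by 0.68 ± 0.16 (adjusted p = 0.0305 for both), and Dennd4a and Dip2b rose by 0.66 ± 0.16 and 0.56 ± 0.14. The calls of these higher genes held in 6, 7, 4 and 5 of 16 such fits, with adjusted p up to 0.0856, 0.0876, 0.114 and 0.107. Further calls lost in the fit on the 16 libraries alone were those of Dennd4a, Dip2b and Mrpl17 (adjusted p = 0.0902 for each), Fzd2 (0.0537), Rnf157 (0.0596), Atp5d (0.0507), Nol12 (0.0784), Wdr74 (0.0743) and Cdkn2aipnl (0.0955). Further calls lost with the thalamus, hypothalamus and septum covariate were those of Gltp (adjusted p = 0.0684), Ptk2 (0.0877), Dennd4a (0.0664), Akr7a5 (0.0508), Pgm1 (0.0715) and Mrpl17 (0.0816). With the no-feature share as covariate, calls were lost for Ptk2 (adjusted p = 0.0857), Dennd4a (0.124), Dip2b (0.0992), Lynx1 (0.0593) and Cdkn2aipnl (0.0867).

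Other lists held no called gene. Of 28 postsynaptic glutamate and GABA genes 22 were higher (median 0.14), of 14 interneuron genes 12 were lower (median -0.14), and of 19 endothelial and mural genes 15 were higher (median 0.07). Immediate early genes were higher in 11 of 14 (median 0.20), glucocorticoid-response genes lower in 9 of 13 (median -0.03), lysosome and autophagy genes lower in 17 of 27 (median -0.03), glycolysis genes lower in 12 of 17 (median -0.14), and p53-response genes higher in 7 of 11 (median 0.12).

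Over all 10679 genes, AON12.1-treated mice lay between the aCSF and scrambled groups in distance from WT as measured. They lay farthest of the YAC128 groups once the no-feature share was removed. The root mean square difference between the group means of log2 CPM was 0.248 for AON12.1, 0.254 for aCSF and 0.223 for scrambled, all from the same WT libraries and with no test. The spread between libraries alone would give 0.187, 0.181 and 0.182. With the squared standard errors of the means subtracted, the distances were 0.163, 0.179 and 0.129. After removal of the within-group slope on the no-feature share they were 0.176, 0.135 and 0.131, so the order of AON12.1 and aCSF turned. Single libraries were farther apart than the group means: the median distance was 0.542 between an AON12.1 and a WT library, 0.527 between AON12.1 libraries and 0.516 between WT libraries.

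To place single mice, each library was projected on the axis from the WT mean (0) to the AON12.1 mean (1), with the library itself left out of the means. AON12.1 libraries averaged 0.689 ± 0.217 and WT libraries 0.292 ± 0.202 (SD, n = 8 each). The ranges overlapped, since WT replicate 1, the WT library with the highest no-feature share, lay at 0.763 and the lowest AON12.1 library, replicate 5, at 0.389. With the slope on the share removed, WT libraries lay between 0.0815 and 0.363 and AON12.1 libraries between 0.447 and 1.07, and the ranges did not overlap. That slope was fitted on all 32 libraries, the placed one included. These positions are therefore not fully held out, and WT replicate 1 had a part in the slope that moved it. YAC128 libraries that had no part in the axis averaged 0.618 ± 0.190 with aCSF and 0.603 ± 0.270 with scrambled as measured. With the slope removed they averaged 0.506 ± 0.171 and 0.581 ± 0.233. The same WT mean sets the 0 and the axis, so its sampling error alone shifts libraries from 0 towards 1. These averages are therefore read beside the held-out WT mean, 0.292 as measured and 0.270 with the slope removed, and not beside 0. A library is projected on the profile of all tested genes, with the 60 that passed among them. Genes with a larger difference between the WT and AON12.1 means weigh more, so these positions are not independent of the 60.

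**Figure D5:**
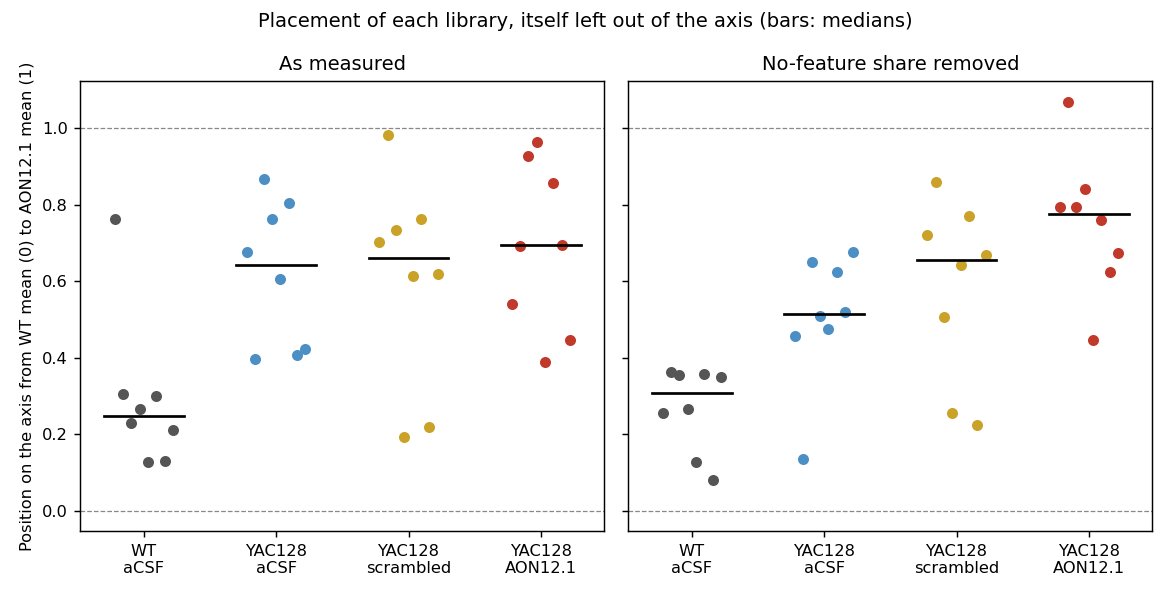
Position of each library (points) on the axis from the WT mean (0) to the AON12.1 mean (1) in log2 CPM of 10679 genes (y axis) for the 4 groups (x axis), as measured on the left and with the slope on the no-feature share removed on the right; black bars are medians. On the left WT replicate 1 lies among the AON12.1 libraries at 0.763, and on the right all WT libraries lie at 0.363 or below and all AON12.1 libraries at 0.447 or above. The slope was fitted on all libraries, the placed one included.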

How the data were processed

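The authors deposited whole-number counts per gene, 1 table per library, and per the labels' protocols the libraries were made from 100 ng of total RNA with a barcoded oligo-dT primer carrying a molecular identifier. FastQC, cutadapt 2.10, STAR 2.7.5a, HTSeq 0.12.4 and the GRCm39 build are named per the submitters' processing notes. The sources used here do not say whether counts were collapsed by identifier or used strand. Summary lines stayed out of library sizes. Names came from a GRCm38 annotation by Ensembl identifier. In R 4.3.3, edgeR 4.0.16 kept genes by filterByExpr (minimum count 10, minimum total 15), normalized by TMM and fitted all 32 libraries with 1 coefficient per group. The quasi-likelihood test gave each gene a p-value, adjusted over every tested gene after Benjamini and Hochberg (Benjamini-Hochberg, BH), and calls were made at an adjusted p under 0.05. On simulated data with 10503 genes this recovered 55.6% of 1.5-fold and 92.0% of 2-fold changes. Of the calls, 9.26% were false, more than the threshold of 0.05 aims for. The simulation gave every gene the same biological coefficient of variation, 0.17, and no axis shared between libraries. These data differ in that, so recovery in them may differ.

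Distances used log2 CPM with a prior count of 2. Library measures were compared by exact permutation tests (scipy 1.17.1). Alternatives included DESeq2 1.42.0 and limma 3.58.1 (voom). Gene lists carry no test. The text names Htt, NM_001388492, the 15 called genes of smallest p that rose and the 15 that fell (no predicted, Rik or X- and Y-linked genes among them), as many as 3 genes from any list with at least 5 tested, and 17 references. Some of these are not reported here. Other genes were chosen after their values were seen. The comparison and the lists were chosen with earlier results of these data known.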

Additional observations from a re-analysis of the deposited data

Results flagged for a closer look

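Each value here stood farther from the other 7 libraries of its group than Dixon's test allows at the 95% level. Chance gives about 1 such value in 20 groups, which is 8 for the 160 groups of values examined, and 19 were found. AON12.1 replicate 2 gave 7 of them: 658934 gene counts, the lowest of its group, and the highest levels of Apod (806 CPM), Gsn (154 CPM), Mobp (667 CPM), Mbp (4018 CPM), Qdpr (439 CPM) and Adora2a (128 CPM). Their part in the results was measured by leaving this library out, as given beside Apod, Mobp, Mbp and Adora2a. In other AON12.1 libraries, Ifitm3 was low in replicate 3 (32.9 CPM), and Nudt18 was high in replicate 8 (89.4 CPM), Gamt in replicate 5 (61.0 CPM), Fzd2 in replicate 4 (26.6 CPM) and Lynx1 in replicate 1 (205 CPM). Among WT libraries, replicate 1 had the highest no-feature share (30.2%) and the highest Htt (129.5 CPM), and replicate 4 the highest Apod (469 CPM) and H2-K1 (48.6 CPM). Fam213b was low in WT replicate 6 (163 CPM), Qdpr was low in WT replicate 3 (298 CPM), and Atp1b3 was high in WT replicate 7 (149 CPM).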

How the results depend on the processing

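The 60 calls between AON12.1 and WT became 60 with DESeq2 size factors, 56 with limma voom and 106 with the DESeq2 test. They became 78 without a filter and 73 with a stricter filter. With only the AON12.1 and WT libraries in the fit there were 58, with 45 of the 60 among them, and Spata5 was not tested there. There were 70 with the leading digits of the animal number (18 or 19) as a factor. A covariate for the no-feature share gave 85. The labels do not say what the leading digits stand for. Within the animals numbered from 18 there were 3 calls (2 against 3 libraries), within those from 19 there were 26 (6 against 5), and with shares up to 25% there were 33 (5 against 7), all with fewer samples. With the level of thalamus, hypothalamus and septum markers as a covariate, chosen after seeing the data, there were 67. Leaving out each library gave 49 to 97. Against aCSF the 33 calls became 94 with the DESeq2 test and 26 to 73 without a library of either group, 61 being without AON12.1 replicate 7 and 73 without aCSF replicate 8. Against scrambled the 15 became 9 with the stricter filter and 10 to 17 without a library of either group. Leaving out the aCSF and scrambled libraries was chosen after seeing the data. Of 58 of the called genes, 35 passed without each library in turn. All 58 kept their direction among the animals from 18 and among those from 19. These animals are part of those on which the genes were selected, so a kept direction is no independent support. The distance of 0.248 was 0.277 with a prior count of 0.5, 0.211 with the stricter filter and 0.245 to 0.269 without a library.

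No gene whose direction turned had passed the test. Within the animals from 18, values were 0.10 for Adora2a, -0.043 for Drd1, 0.10 for Drd2, 0.20 for Mbp and 0.19 for Qdpr. Drd1 was -0.12 with shares up to 25% and -0.038 with the marker covariate, where Ppp1r1b was -0.18. Leaving out a library, Ppp1r1b ran from -0.071 to 0.18 and Drd2 from -0.19 to 0.071. The no-feature difference of 4.32 points was -3.81 within animals from 18, 7.68 within those from 19 and 2.92 to 5.84 without a library. The gene count difference of 64296.8 was -3329.83 within animals from 18. The causes were not tested. No paired analysis was possible because replicate numbers were given in accession order only and name samples without pairing them. A 1.5-fold change was recovered in 55.6% of simulated cases, so changes of this size can be missed.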
